A study of Mus musculus with 4 samples.

Results

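The genes of cholesterol synthesis and sterol regulation comprised 30 of the 15500 genes in a liver RNA-seq table. They were taken by symbol from a list of 31 names, in which Msmo1 and its older symbol Sc4mol are 1 gene, which the table lists as Sc4mol. The names were chosen by their role in the pathway with earlier results of these same libraries in view, among them the FPKM ratios of CLA to Vehicle, so the values of these genes are a description and no test of them was made. The genes were 20 enzymes from acetyl-CoA to cholesterol, 4 genes of sterol sensing, 4 of sterol transport and 2 of sterol efflux. A mean level of at least 1 FPKM (sequenced fragments corrected for transcript length and library size) over the libraries was reached by 29 of them, and Abcg1 was the exception.

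The libraries came from livers of male Kunming mice, an outbred stock, bought at 5 weeks of age and sampled at zeitgeber time 8, that is 8 h after lights on. For 28 days the diet held 1.5% (w/w) linoleic acid (LA) or 1.5% (w/w) conjugated linoleic acid (CLA). The Vehicle mice ate the LA diet, with vehicle injections where appropriate, and the CLA mice ate the CLA diet. The GW6471 mice ate the LA diet and the CLA+GW6471 mice the CLA diet, both with GW6471, an antagonist of the nuclear receptor PPARα, injected daily at 20 mg/kg into the peritoneal cavity. Each group held 6 mice, and the table holds 1 library per group, with no statement in the sources used here on whether RNA of several mice was pooled. With 1 library per group there is no replicate error. Every difference below is therefore a difference between those libraries, without a p-value. Ratios are log2 of (FPKM + 0.1), on which changes of low genes come out smaller than they are, and a gene was counted as higher or lower from a 1.5-fold difference on that scale with a mean of at least 1 FPKM.

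The depth was estimated from the steps between low FPKM values at 18800000 to 19280000 reads per library. Counting intervals (95%, exact Clopper-Pearson) computed from these estimates cover counting error only. Over all 10355 genes with a mean of at least 1 FPKM, CLA+GW6471 lay within 1.5-fold of Vehicle for 98.9% and GW6471 within 1.5-fold of CLA for 96.4%, so that the library of both treatments stood close to Vehicle. The gene with the most FPKM in every library was Sprr1a, a small proline-rich protein of squamous epithelia, with 3.02% to 5.02% of the sum. No value used here checks which library received CLA or GW6471, and all values are given as labelled. The labelled tissue was liver, and several defining hepatocyte transcripts were near 0: of 16 hepatocyte markers 13 were listed, and 6 of these had a mean under 1 FPKM, among them Ttr (0 to 0.04), Cps1 (0.01 to 0.03) and Cyp2e1 (0.04 to 0.1 FPKM). The summed level of the listed hepatocyte markers was 1069 FPKM for Vehicle, 1941 for CLA, 1582 for GW6471 and 992 for CLA+GW6471, with both single treatments above both others as for 24 of the 29 genes below, and its part in the results was not tested. Alb made 680, 1322, 1067 and 620 FPKM of these sums. Trf (222, 351, 316 and 220 FPKM), Fgb (45.22, 138.03, 86.43 and 35.68 FPKM), Apob and Ass1 also had both single treatments above both others. Hnf4a had 54.53, 47.31, 47.23 and 51.84 FPKM, and Hpx 47.64, 50.61, 37.23 and 40.73 FPKM, which did not follow that order. The sums for stellate cells or fibroblasts (almost all Dcn, with Col3a1 and Lum near 0) were 1288, 1507, 1351 and 1149 FPKM, again with both single treatments above both others. Those for Kupffer cells (Cd68 in the main, with Emr1 and Cd5l near 0) were 23.5, 35.7, 24.9 and 24.5 FPKM, highest in CLA as well. The part of these markers in the results was not tested either. The other sums ran from 0.51 to 0.94 FPKM for endothelial cells and from 1652 to 1939 for biliary or other epithelium (mainly Krt18 and Krt8). They were 1.80 to 2.03 FPKM for blood, at most 12.2 for adipocytes and at most 0.1 for skeletal muscle. In bulk tissue, fewer cells of a type and less RNA per cell cannot be told apart.

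Cells build cholesterol from acetyl-CoA through mevalonate, the isoprenoid diphosphates, squalene and lanosterol, and the liver is a major site of this synthesis. When sterols in the endoplasmic reticulum (ER) membrane are scarce, SCAP escorts SREBP2, the product of Srebf2, to the Golgi, where it is cut to release a transcription factor that acts on most genes of the pathway, whereas INSIG proteins hold SCAP back when sterols are plentiful. LXR receptors respond to oxysterols and act on the efflux transporters.

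The promoters show which known elements lie close to the starts of these genes. RefSeq promoter sequences (GRCm38.p6, a later build than that of the expression table) were at hand for 24 of the 30 genes, with 30 starts. Within the 250 bases upstream of a start, 4 motifs were searched on both strands: the sterol regulatory element TCACNCCAC, the CCAAT box CCAAT, the GC box GGGCGG and the E box CACGTG. Of the 93 matches found, no pair of different motifs overlapped. The 4 sequences below are shown because Hmgcs1 was the gene with the sterol regulatory element, Idi1 and Insig1 are further genes of the pathway with CCAAT boxes, and Acat2, with the largest ratio of CLA to Vehicle among the 29 genes, had no CCAAT box. They read 5′ to 3′ toward the gene and end at the base before its start. The Hmgcs1 sequence is chr13:119690101-119690350 on the plus strand, that of Idi1 chr13:8885356-8885605 on the plus strand, that of Insig1 chr5:28071162-28071411 on the plus strand and that of Acat2 chr17:12960726-12960975 on the minus strand. Capitals mark the sterol regulatory element and the CCAAT boxes, which appear as ATTGG where they lie on the other strand.
Hmgcs1: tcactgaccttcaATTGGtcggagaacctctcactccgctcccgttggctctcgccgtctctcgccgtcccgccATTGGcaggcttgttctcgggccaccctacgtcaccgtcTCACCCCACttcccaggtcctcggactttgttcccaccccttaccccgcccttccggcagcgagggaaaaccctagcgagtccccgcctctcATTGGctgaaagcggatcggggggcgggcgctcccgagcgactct
Idi1: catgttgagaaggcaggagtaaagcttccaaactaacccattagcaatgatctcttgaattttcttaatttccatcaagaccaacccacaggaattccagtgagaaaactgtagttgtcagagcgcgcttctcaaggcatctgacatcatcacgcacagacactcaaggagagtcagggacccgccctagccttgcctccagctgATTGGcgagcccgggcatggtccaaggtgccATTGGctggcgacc
Insig1: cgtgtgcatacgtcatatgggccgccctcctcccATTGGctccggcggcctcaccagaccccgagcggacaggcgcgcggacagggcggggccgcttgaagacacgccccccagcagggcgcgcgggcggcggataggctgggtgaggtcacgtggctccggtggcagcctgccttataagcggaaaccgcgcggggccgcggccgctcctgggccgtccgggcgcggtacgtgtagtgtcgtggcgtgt
Acat2: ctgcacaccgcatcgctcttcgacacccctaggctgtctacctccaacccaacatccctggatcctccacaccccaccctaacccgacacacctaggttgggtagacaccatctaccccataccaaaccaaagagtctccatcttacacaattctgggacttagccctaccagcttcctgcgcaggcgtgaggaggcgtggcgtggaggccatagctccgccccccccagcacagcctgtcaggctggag

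A CCAAT box was present upstream of 21 of the 24 genes (87.5%), against 37.5% of all 27025 genes with a promoter and 41.4% of the 8414 with a mean of at least 1 FPKM. Counted over starts instead of genes, these shares were 70% of 30 and 33.8% of 32851. The genes without one were Acat2, Scap and Abca1. A GC box was present for 22 genes (91.7%), against 35.4% of all genes and 66.2% of those with a mean of at least 1 FPKM. An E box was found for 6 genes (25%), against 6.86% and 10.3%. The sterol regulatory element as spelled here had a match in Hmgcs1 alone (4.17% of the genes), 137 to 129 bases upstream of the start, against 1.22% of all genes and 1.26% of those with a mean of at least 1 FPKM. Other spellings of this element were not searched, so the absence of a match says only that these letters are not in the window.

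**Figure D1:**
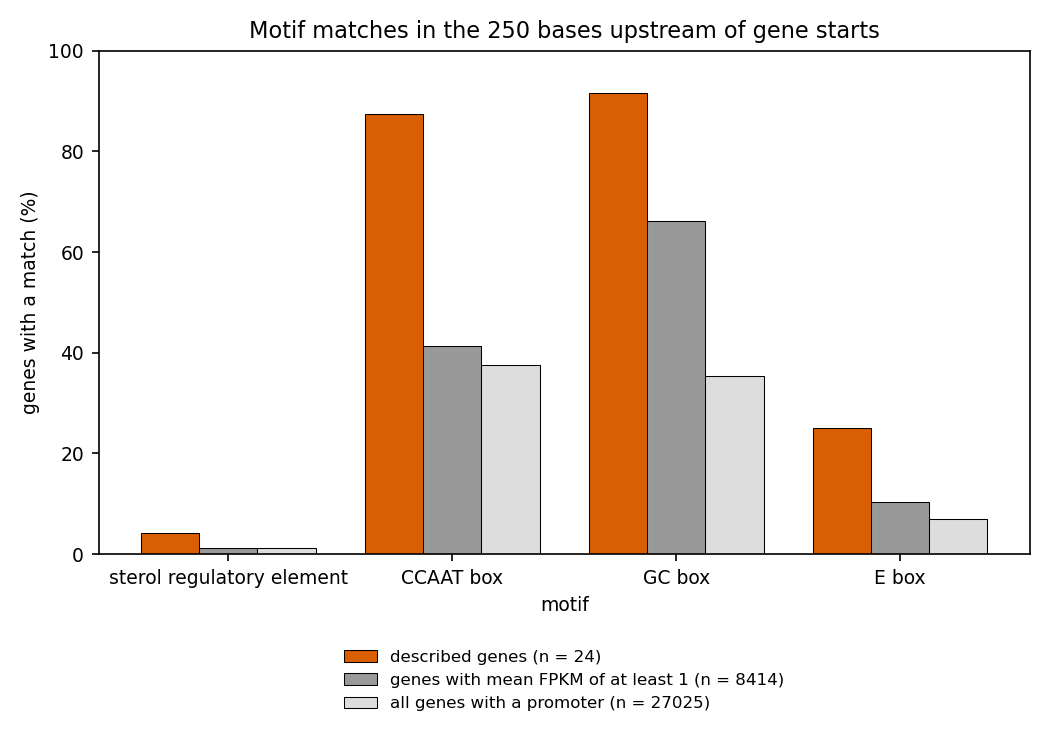
Share of genes (%, vertical axis from 0) with at least 1 match to each motif in the 250 bases upstream of a start, for the 24 genes described here (orange), the 8414 genes with a mean of at least 1 FPKM (dark grey) and all 27025 genes with a promoter (light grey). The orange bars reach 87.5% for the CCAAT box and 91.7% for the GC box, and 4.17% for the sterol regulatory element.

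Across the 29 genes with a mean of at least 1 FPKM, the libraries labelled CLA and GW6471 had mostly higher levels than those labelled Vehicle and CLA+GW6471. For 24 of the 29, both libraries of a single treatment lay above both others, an order that 30.2% of all genes had. For Scap, Tmem97 and Npc1 both lay below, the order of 31.8% of all genes, and Mvk and Abca1 had mixed orders. The summed level of the 30 genes was 920 FPKM for Vehicle, 1332 for CLA, 1199 for GW6471 and 899 for CLA+GW6471. CLA was the highest library for 20 of the 29 genes, GW6471 for 5, CLA+GW6471 for 3 and Vehicle for 1. The lowest was CLA+GW6471 for 18, Vehicle for 8 and CLA for 3. The shares of all genes with these ranks were not computed, so nothing is read from the ranks.

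**Figure D2:**
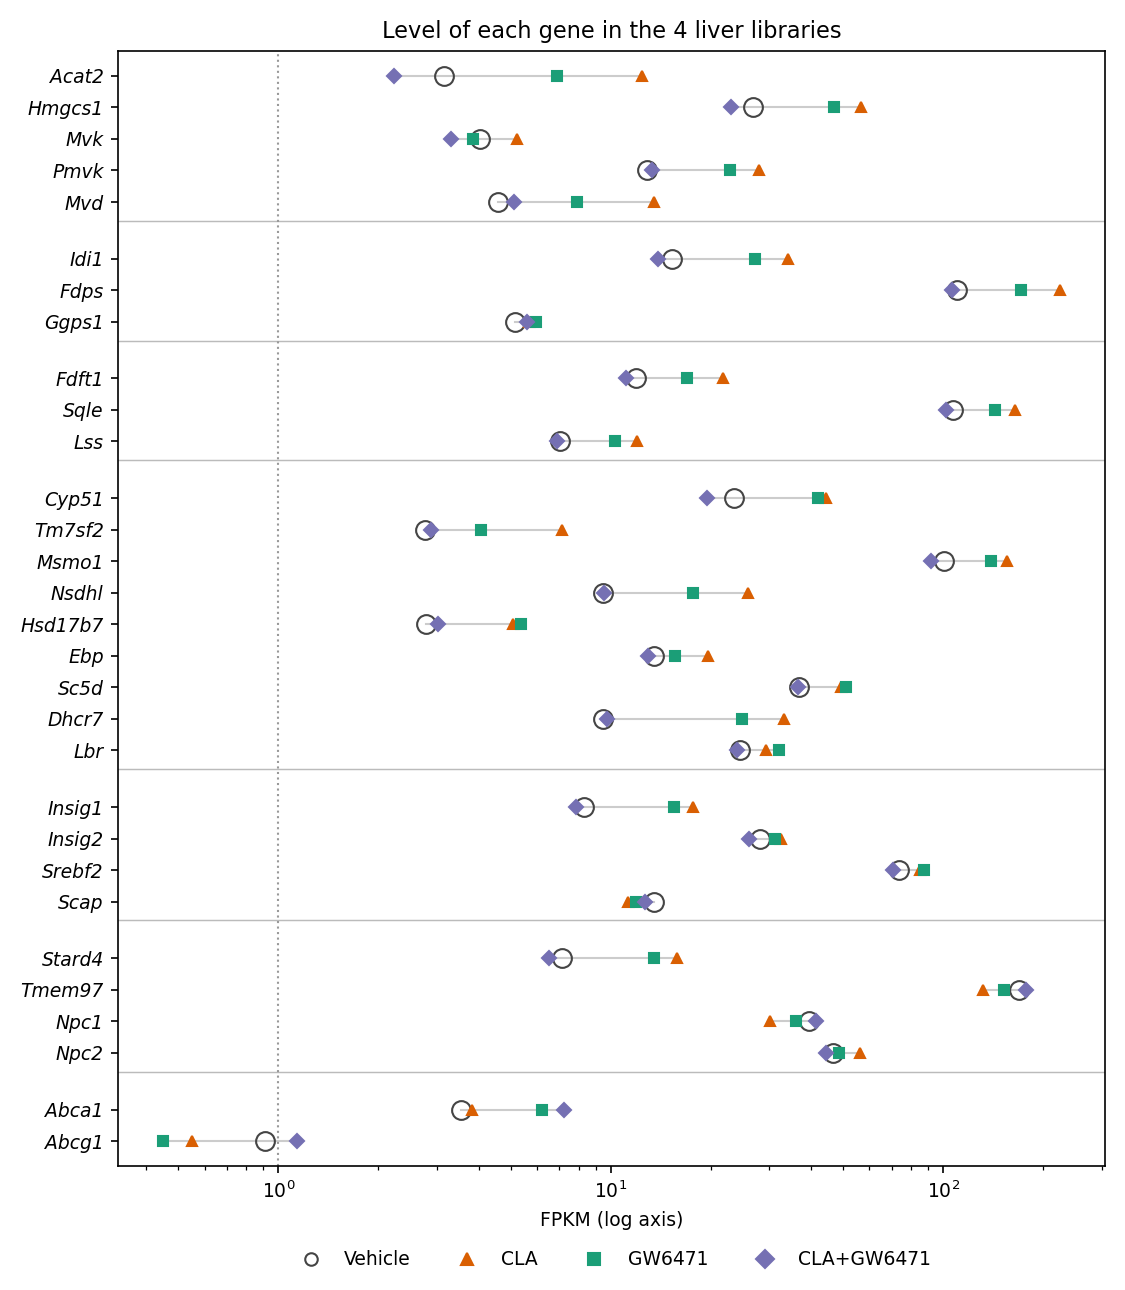
Level of each gene in FPKM (log axis) in the libraries Vehicle (open circle), CLA (triangle), GW6471 (square) and CLA+GW6471 (diamond), with 1 library per group; lines between genes separate the roles, from mevalonate entry at the top to efflux at the bottom, and the dotted line marks 1 FPKM. For most enzymes the triangle and the square lie to the right of the circle and the diamond, and for Scap, Tmem97 and Npc1 to the left.

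Dietary CLA was compared with the LA diet first. Of the 29 genes, 17 were at least 1.5-fold higher in CLA than in Vehicle, against 7.33% of all 10355 genes, and 0 were lower, against 4.95%. Since the list was chosen with this comparison known, nothing is read from that difference in shares. The same holds for the shares in the other comparisons below, which share a library with it or use libraries close to its own. The median log2 ratio of the 29 genes was 0.76, beside -0.0071 over all genes. With 95% counting intervals, 27 of 29 genes with a known transcript length (Abcg1 with them and Hmgcs1 left out) differed beyond counting error, as did 65.6% of 9762 genes overall. Ggps1 and Abca1 were the genes within it.

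GW6471 was then compared with Vehicle on the LA diet, to see the compound alone. The genes higher by at least 1.5-fold in GW6471 numbered 13 of 29, against 3.29% of all genes, and 0 were lower, against 2.10%. The median log2 ratio was 0.55, beside -0.0041 over all genes. The GW6471 library lay below CLA for 20 of the 29 genes, with a median log2 ratio of GW6471 to CLA of -0.21, beside -0.0066 over all genes. It lay within 1.5-fold of CLA for 25, beside 96.4% of all genes. Acat2, Mvd and Tm7sf2 were lower and Abca1 higher than that. These comparisons share the Vehicle library, so a low value in it would enter both.

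In mice fed CLA, the addition of GW6471 went with lower levels. CLA+GW6471 was at least 1.5-fold below CLA for 19 of 29 genes, against 9.16% of all genes, and above it for 1 gene, Abca1, against 6.84%. The median log2 ratio was -0.75, beside 0.009 over all genes. In mice given GW6471, the CLA diet went with lower levels than the LA diet. CLA+GW6471 was at least 1.5-fold below GW6471 for 14 of 29 genes, against 3.88% of all genes, and above it for 0, against 2.81%, with a median log2 ratio of -0.58 beside 0.0041 over all genes. Those 14 genes were also among the 17 that were higher in CLA than in Vehicle, and 2.99% of all genes had this combination. These comparisons have no library in common but are not independent. CLA+GW6471 lay within 1.5-fold of Vehicle for 98.9% of all genes, and GW6471 within 1.5-fold of CLA for 96.4%. Of all 402 genes lower in CLA+GW6471 than in GW6471, 310 were also higher in CLA than in Vehicle. Nothing is read from the overlap. The difference between the CLA effects with and without GW6471 could not be tested with 1 library each.

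**Figure D3:**
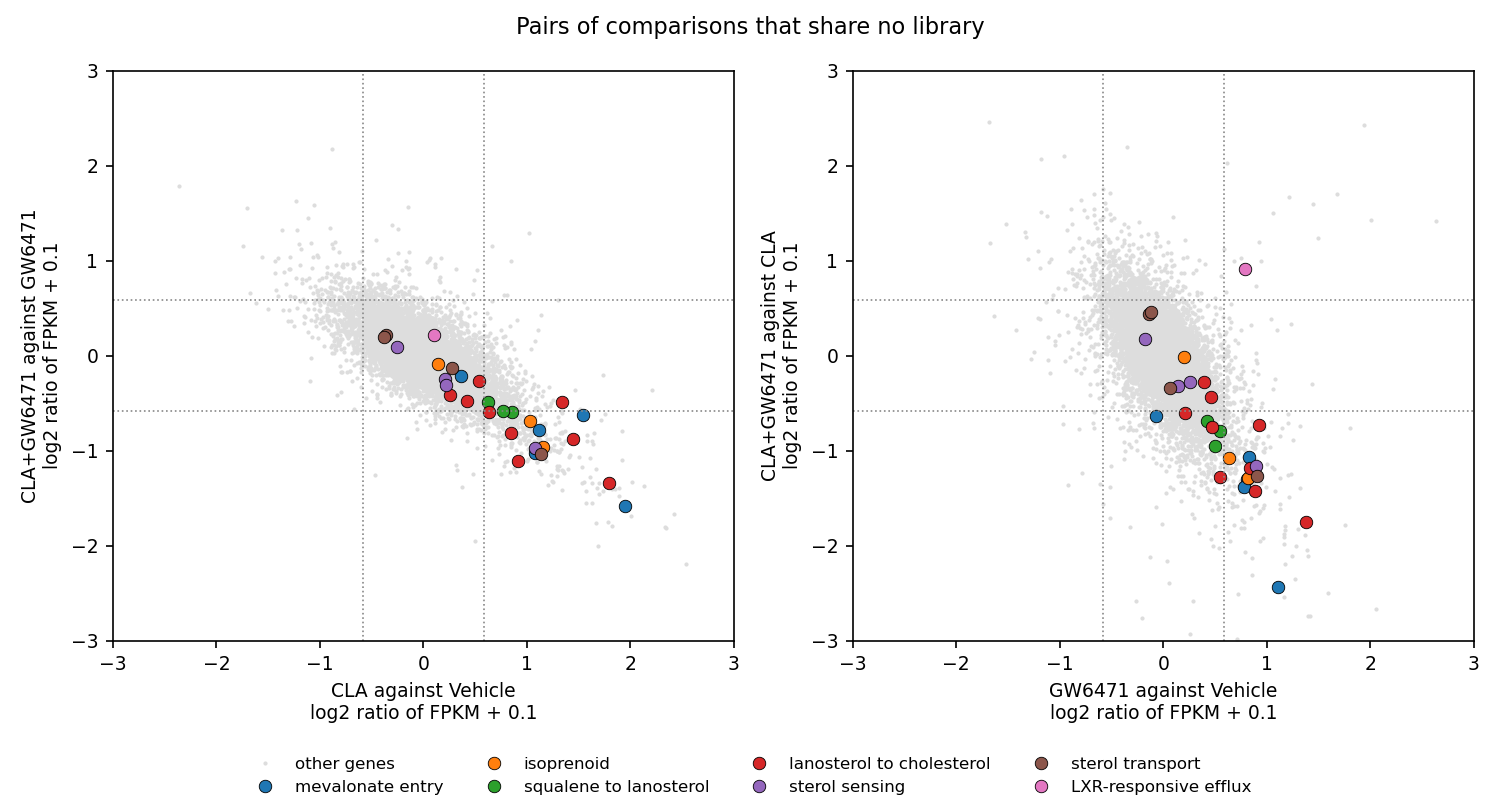
Log2 ratios of FPKM + 0.1 for each gene, with CLA against Vehicle (horizontal) and CLA+GW6471 against GW6471 (vertical) on the left, and GW6471 against Vehicle and CLA+GW6471 against CLA on the right; each panel sets side by side ratios without a shared library. Colours give the roles of the 29 genes, grey points are the other genes with a mean of at least 1 FPKM (2 on the left and 3 on the right lie outside the axes), dotted lines mark 1.5-fold, and most coloured points lie at the lower right.

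Compared directly, CLA+GW6471 and Vehicle differed by less than 1.5-fold for 28 of the 29 genes, as they did for 98.9% of all genes. Their median log2 ratio was -0.06, beside -0.0029 over all genes, with single ratios from -0.48 for Acat2 to 1.01 for Abca1. CLA+GW6471 was the lower library for 19. Counting intervals held 0 for 20 of the 29 genes with a known transcript length, and 9 lay beyond them, against 32.5% of 9762 genes overall. These 9 were Acat2, Sqle, Cyp51, Msmo1, Insig2 and Srebf2, lower in CLA+GW6471, and Tmem97, Npc1 and Abca1, higher in it.

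**Figure D4:**
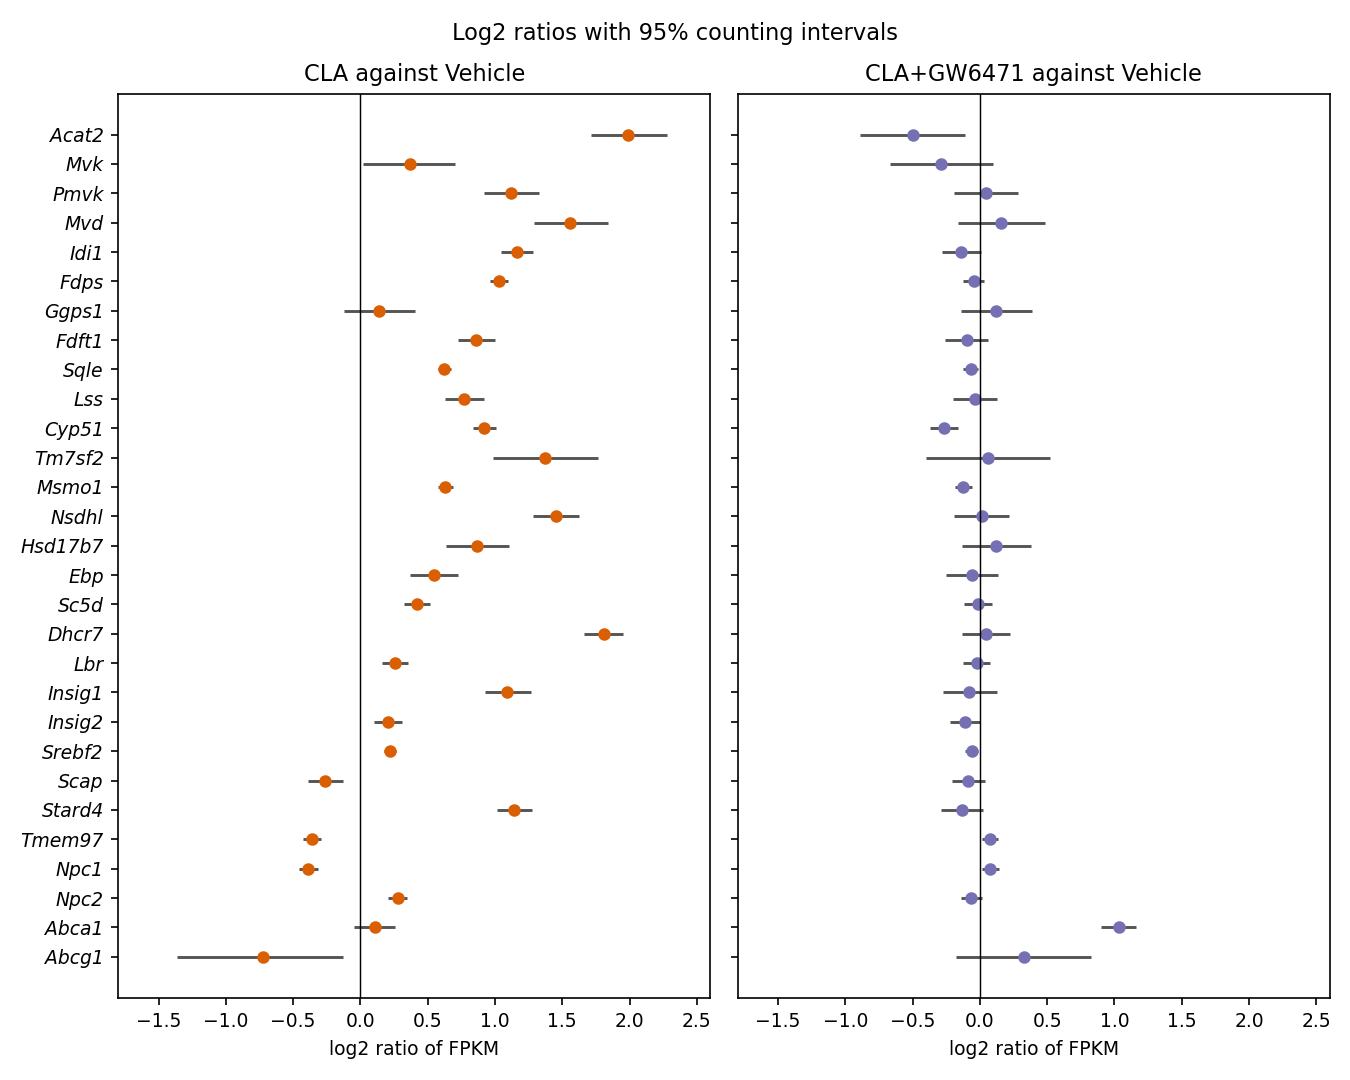
Log2 ratio of FPKM (points, no value added) with the 95% counting interval (bars) for 29 genes with a known transcript length, for CLA against Vehicle (left) and CLA+GW6471 against Vehicle (right). On the left 27 intervals exclude 0 and on the right 9 do, among which Abca1 stands at 1.03.

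Of the 5 enzymes of the mevalonate entry, 4 were at least 1.5-fold higher in CLA than in Vehicle, beside 7.33% of all genes. Acat2, the cytosolic thiolase that joins acetyl-CoA units, had 3.14 FPKM for Vehicle, 12.44 for CLA, 6.88 for GW6471 and 2.22 for CLA+GW6471. It was 3.87-fold higher in CLA than in Vehicle (log2 ratio 1.95) and 3.01-fold lower in CLA+GW6471 than in GW6471 (log2 ratio -1.59), and CLA+GW6471 was below Vehicle as well. Hmgcs1, the HMG-CoA synthase, had 26.76, 56.68, 46.88 and 23.00 FPKM in the same order of libraries, with log2 ratios of 1.08 and -1.02 in these comparisons. The phosphomevalonate kinase Pmvk had 12.86, 27.92, 22.91 and 13.30 FPKM, with log2 ratios of 1.11 and -0.78. Mvd, which decarboxylates mevalonate diphosphate, had 4.58, 13.50, 7.94 and 5.10 FPKM, with log2 ratios of 1.54 and -0.63. In each of these 4 genes both single-treatment libraries were above both others, with ratios from 1.55-fold upward.

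Mvk, the mevalonate kinase, stood apart from its neighbours in the pathway. Its levels were 4.04 FPKM for Vehicle, 5.21 for CLA, 3.85 for GW6471 and 3.31 for CLA+GW6471, so that GW6471 was slightly below Vehicle. The log2 ratio of GW6471 to Vehicle was -0.07, and its counting interval of -0.44 to 0.29 (computed without the added 0.1) held 0. It was lower by at least 1.5-fold in CLA+GW6471 than in CLA, with a log2 ratio of -0.64.

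The 3 isoprenoid enzymes had both single treatments above both others, by less than 1.5-fold for Ggps1. The isomerase Idi1 had 15.29 FPKM for Vehicle, 34.20 for CLA, 27.13 for GW6471 and 13.89 for CLA+GW6471, with log2 ratios of 1.16 for CLA against Vehicle and -0.96 for CLA+GW6471 against GW6471. Fdps, the farnesyl diphosphate synthase and among the most abundant of the genes, had 109.85, 224.47, 171.19 and 106.33 FPKM, with log2 ratios of 1.03 and -0.69. Ggps1, which makes geranylgeranyl diphosphate for protein prenylation at the branch that leaves the sterol route, had 5.15, 5.67, 5.95 and 5.6 FPKM. Its log2 ratios in the 4 comparisons lay between -0.09 and 0.20.

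The enzymes from squalene to lanosterol were higher in CLA than in Vehicle for 3 of 3 genes, beside 7.33% of all genes. Fdft1, the squalene synthase, had 11.93 FPKM for Vehicle, 21.69 for CLA, 16.91 for GW6471 and 11.14 for CLA+GW6471, and was 1.81-fold higher in CLA than in Vehicle and 1.51-fold lower in CLA+GW6471 than in GW6471. Sqle, the squalene epoxidase, was 1.54-fold higher in CLA, with 106.82, 164.39, 143.27 and 101.77 FPKM. Lss, the lanosterol synthase, was 1.70-fold higher, with 7.04, 12.03, 10.32 and 6.87 FPKM. Sqle and Lss lay below the 1.5-fold limit in CLA+GW6471 against GW6471, with log2 ratios of -0.49 and -0.58, and no gene of this step reached it in GW6471 against Vehicle, where 3.29% of all genes were higher.

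From lanosterol to cholesterol, 6 of 9 enzymes were higher in CLA than in Vehicle (7.33% of all genes) and 5 of 9 lower in CLA+GW6471 than in GW6471 (3.88% of all genes). Dhcr7, the last reductase of the route through 7-dehydrocholesterol, had 9.46 FPKM for Vehicle, 33.11 for CLA, 24.81 for GW6471 and 9.74 for CLA+GW6471. Its log2 ratios were 1.80 for CLA and 1.38 for GW6471 against Vehicle, and -1.34 for CLA+GW6471 against GW6471, while Vehicle and CLA+GW6471 differed by 0.04. Nsdhl, a C4 decarboxylase, had 9.47, 25.90, 17.63 and 9.56 FPKM, with log2 ratios of 1.44 for CLA against Vehicle and -0.88 for CLA+GW6471 against GW6471. In both genes the Vehicle and CLA+GW6471 libraries were nearly equal.

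Cyp51, the lanosterol demethylase, had 23.40 FPKM for Vehicle, 44.32 for CLA, 42.03 for GW6471 and 19.45 for CLA+GW6471, so that the single treatments were close to each other (log2 ratio of GW6471 to CLA -0.08). Hsd17b7, a 3-ketosterol reductase, had 2.78, 5.08, 5.38 and 3.02 FPKM, again with the single treatments nearly equal. Msmo1, the C4 methyl oxidase, had 100.30, 155.45, 138.88 and 92.09 FPKM and was 1.55-fold higher in CLA than in Vehicle. The C14 reductase activity is shared by Tm7sf2 and Lbr, the lamin B receptor of the inner nuclear membrane. Tm7sf2 had 2.76, 7.13, 4.08 and 2.87 FPKM, a 2.53-fold higher level in CLA than in Vehicle, whereas Lbr had 24.44, 29.24, 32.14 and 24.04 FPKM, a 1.20-fold higher level. The isomerase Ebp (13.47, 19.65, 15.64 and 12.93 FPKM) and the C5 desaturase Sc5d (36.89, 49.41, 50.96 and 36.54 FPKM) had both single treatments above both others but stayed under 1.5-fold in CLA against Vehicle.

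Over the 20 synthesis enzymes together, 15 were higher in CLA than in Vehicle (7.33% of all genes) and 10 in GW6471 than in Vehicle (3.29% of all genes). In CLA+GW6471, 17 were lower than in CLA (9.16% of all genes) and 12 lower than in GW6471 (3.88% of all genes). The median log2 ratios of these comparisons were 0.89, 0.59, -1.01 and -0.61. The enzymes under 1.5-fold in CLA against Vehicle were Mvk, Ggps1, Ebp, Sc5d and Lbr.

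The sterol-sensing genes differed among themselves. Insig1, an ER protein that retains SCAP and is itself a SREBP target, had 8.29 FPKM for Vehicle, 17.66 for CLA, 15.51 for GW6471 and 7.85 for CLA+GW6471. Its log2 ratios were 1.08 for CLA against Vehicle, 0.90 for GW6471 against Vehicle, -1.16 for CLA+GW6471 against CLA and -0.97 for CLA+GW6471 against GW6471. Its paralog Insig2 had 28.20, 32.57, 31.13 and 26.12 FPKM, with log2 ratios between -0.32 and 0.21 in these comparisons. Srebf2 had 73.41, 85.41, 87.62 and 70.45 FPKM, and its ratio of CLA to Vehicle was 0.22 with a counting interval of 0.17 to 0.26, computed without the added 0.1. Scap, the escort and sterol sensor, had 13.46, 11.24, 11.87 and 12.67 FPKM, with both single treatments below both others and a log2 ratio of -0.26 for CLA against Vehicle. Insig1 was thus at least 1.5-fold apart in each comparison, and Insig2, Srebf2 and Scap in none.

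Of the transport genes, Stard4, a cytosolic sterol carrier, followed the enzymes. It had 7.15 FPKM for Vehicle, 15.81 for CLA, 13.46 for GW6471 and 6.52 for CLA+GW6471, with log2 ratios of 1.13 for CLA against Vehicle and -1.03 for CLA+GW6471 against GW6471. The lysosomal exporter Npc1 and Tmem97, the sigma-2 receptor that binds the NPC1 protein, had the reverse order. Npc1 stood at 39.34, 30.10, 36.19 and 41.51 FPKM. Tmem97, at the highest mean level of all 30 genes (158 FPKM), had 168.54, 131.40, 152.82 and 177.91 FPKM. Their log2 ratios of CLA to Vehicle were -0.39 and -0.36, under 1.5-fold, and 0 lay outside their counting intervals. Npc2, the soluble partner of NPC1 in the lysosome, had 46.47, 56.26, 48.74 and 44.46 FPKM, with both single treatments above both others and a log2 ratio of CLA to Vehicle of 0.28.

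The efflux transporters, which respond to LXR, did not share the pattern. Abca1, which passes cholesterol to apolipoprotein A-I, had 3.55 FPKM for Vehicle, 3.82 for CLA, 6.22 for GW6471 and 7.25 for CLA+GW6471. Both libraries with GW6471 were above both without it, with log2 ratios of 0.79 for GW6471 against Vehicle and 0.91 for CLA+GW6471 against CLA. Those ratios share no library. Abcg1, which passes cholesterol to HDL, had 0.91, 0.55, 0.45 and 1.14 FPKM, under 1 FPKM on average, and enters the counts of counting intervals above but not those of genes at least 1.5-fold apart.

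Levels differed widely between the genes on the per-length FPKM scale. The highest means were those of Tmem97 (158), Fdps (153), Sqle (129) and Msmo1 (122 FPKM), whose ranges over the libraries overlap, so that their order is not set apart from the spread between libraries. Mvk, Tm7sf2, Hsd17b7 and Abca1 were among the lowest, at 2.76 to 7.25 FPKM over all libraries.

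The wider pathway was described with 60 further genes in 6 lists, of which 56 were listed and 47 had a mean of at least 1 FPKM. Of those 47, 6 were higher and 3 lower in CLA than in Vehicle, with a median log2 ratio of 0.05, beside 7.33% and 4.95% of all genes. In CLA+GW6471 against GW6471, 2 were higher and 4 lower, with a median of -0.08, beside 2.81% and 3.88% of all genes. GW6471 against Vehicle gave 3 higher and 2 lower (median 0.04), beside 3.29% and 2.10%, and CLA+GW6471 against CLA 3 higher and 9 lower (median -0.04), beside 6.84% and 9.16%. The lists, of 3 to 12 genes each, were not compared with one another.

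The genes that supply cytosolic acetyl-CoA were higher in CLA than in Vehicle for 3 of 3, beside 7.33% of all genes. Acss2, which makes acetyl-CoA from acetate, had 2.38 FPKM for Vehicle, 7.08 for CLA, 5.64 for GW6471 and 2.45 for CLA+GW6471, with log2 ratios of 1.53 for CLA against Vehicle and -1.17 for CLA+GW6471 against GW6471. The citrate carrier Slc25a1 had 43.45, 80.75, 60.64 and 44.28 FPKM, and the citrate lyase Acly 45.43, 70.77, 58.51 and 40.24 FPKM. Their log2 ratios of CLA to Vehicle were 0.89 and 0.64. All 3 were also lower in CLA+GW6471 than in CLA, beside 9.16% of all genes, with a median of -0.87.

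Among 9 measured genes of SREBP processing and sterol-regulated degradation, 1 was higher and 1 lower in CLA than in Vehicle, beside 7.33% and 4.95% of all genes. Rnf145, a ubiquitin ligase of the ER, had 19.10 FPKM for Vehicle, 33.07 for CLA, 23.52 for GW6471 and 15.35 for CLA+GW6471. Erlin1, an ER lipid raft protein, had 28.06, 12.26, 21.48 and 32.06 FPKM, a log2 ratio of -1.19 for CLA against Vehicle and 0.58 for CLA+GW6471 against GW6471. The proteases that cut SREBP were level: Mbtps1 had 34.92 to 35.63 FPKM and Mbtps2 14.03 to 15.86 FPKM over the 4 libraries. March6 was not found under its symbol.

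Of the genes for sterol esters, oxysterols and bile acids, 6 had a mean of at least 1 FPKM, and 1 was higher and 2 lower in CLA than in Vehicle, beside 7.33% and 4.95% of all genes. Lipa, the lysosomal acid lipase that frees cholesterol from esters, had 13.82 FPKM for Vehicle, 27.37 for CLA, 21.78 for GW6471 and 12.79 for CLA+GW6471. Soat2, which forms sterol esters, had both single treatments below both others, with 3.75, 1.49, 2.48 and 3.23 FPKM and a log2 ratio of CLA to Vehicle of -1.28. Lcat, which esterifies cholesterol in plasma, was also lower, with 1.83, 1.04, 1.13 and 2.05 FPKM. It was at least 1.5-fold higher in CLA+GW6471 than in GW6471, with a log2 ratio of 0.81. Cyp7a1, the rate-limiting enzyme of bile acid synthesis, had at most 0.02 FPKM in any library, and Abcg5 and Abcb11, canalicular exporters of hepatocytes, at most 0.04 FPKM.

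Genes that use isoprenoids were within 1.5-fold in CLA against Vehicle for 12 of 12 with a mean of at least 1 FPKM, beside 7.33% higher and 4.95% lower over all genes, with log2 ratios from -0.52 to 0.38. Pdss1, of ubiquinone synthesis, had 3.13 FPKM for Vehicle, 2.70 for CLA, 1.81 for GW6471 and 3.47 for CLA+GW6471, and was the member of this list that was higher in CLA+GW6471 than in GW6471 (log2 ratio 0.90), beside 2.81% of all genes. Of 9 genes of LXR and lipoprotein uptake, 0 were at least 1.5-fold apart in CLA against Vehicle, beside 7.33% higher and 4.95% lower over all genes. The lipoprotein receptor gene Vldlr, with 11.06, 16.01, 15.61 and 9.68 FPKM, was lower in CLA+GW6471 than in GW6471 (log2 ratio -0.68), beside 3.88% of all genes. Of 8 genes of intracellular sterol traffic, 1 was higher in CLA than in Vehicle, beside 7.33% of all genes, the carrier Scp2, with 11.02, 17.81, 13.88 and 10.36 FPKM (log2 ratio 0.69).

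**Figure D5:**
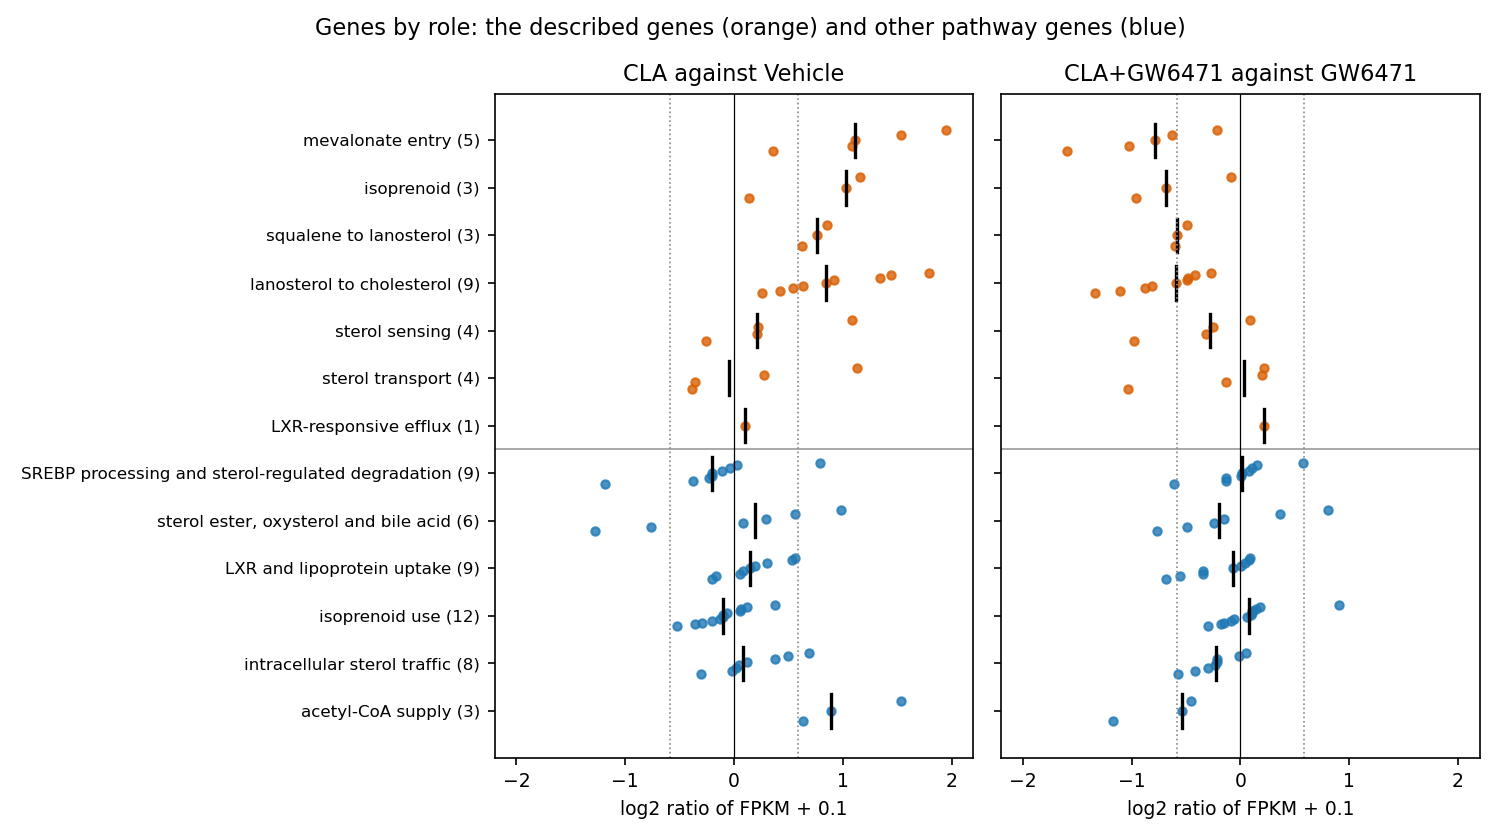
Log2 ratio of FPKM + 0.1 for single genes (points) by role, for CLA against Vehicle (left) and CLA+GW6471 against GW6471 (right), with the number of genes in brackets, the median of each role as a black bar and dotted lines at 1.5-fold; orange points are the genes described here and blue points other genes of the pathway. The medians of the enzyme roles lie between 0.76 and 1.11 on the left, and acetyl-CoA supply is the blue role with a median past the dotted line there, at 0.89.

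Some values are uncertain because reads may be shared. In the mouse genome build of the table (mm9), 8 of 29 genes searched had another locus with at least 90% identity over at least 50% of the longest coding transcript: Acat2, Idi1, Fdps, Ggps1, Fdft1, Sc5d, Insig1 and Tmem97. For Idi1, at chr13:8884852-8891641, the best match was 99.9% identical, and for Insig1, at chr5:28397952-28405201, it covered 99.8% of the transcript. Acat2, at chr17:13135756-13153613, had its match on the same chromosome, at chr17:13117023-13132877, with 97.1% identity over 80.6% of the transcript. Its values, with the largest ratio of CLA to Vehicle, may thus hold reads of that locus, which was not tested. Exons of Fdft1 (chr14:63763990-63796630, minus strand) shared 26.9% of their bases with the neighbouring Ctsb on the other strand, those of Scap 18.9% with 5830462I19Rik on the other strand and those of Tm7sf2 15.3% with 1110014N23Rik on the same strand. Whether the quantification used strand was not stated in the sources read. Hmgcs1 had no entry in the annotation used, so these checks and the counting intervals were not made for it.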

How the data were processed

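Liver RNA of 4 groups was sequenced, 1 library each. BWA and Bowtie served the authors for mapping to mm9 and Cufflinks for quantification, without stated versions, and the FPKM they deposited have 2 decimals, 1 column per library. All columns were used. Counts were not at hand, and no count model was applied.

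Groups came from the labels. The 30 genes, the pathway lists, the markers and the comparisons were chosen with earlier results of these data known. Named genes were all 30, and those of the pathway lists at least 1.5-fold apart in CLA against Vehicle or CLA+GW6471 against GW6471. Mbtps1, Mbtps2, Cyp7a1, Abcg5, Abcb11 and March6 fall outside this rule and were named after their values were seen. Ratios were log2(FPKM + 0.1), with genes kept from a mean of 1 FPKM. Depth was estimated from low values of 544 genes with transcripts under 1000 nt (GENCODE vM1), where 1 read is worth a fixed step. The fit of the values to the best step scored 0.472 to 0.557, against at most 0.245 with lengths permuted. Near-identical loci were sought with minimap2 2.31-r1302. The calculations used matplotlib 3.10.9, scipy 1.17.1, pandas 2.3.3 and numpy 2.4.6 under Python 3.11.15, and the calling rule was tested on simulated data. A planned comparison of INSIG proteins was not run, and alternatives are given in the closing section.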

Additional observations from a re-analysis of the deposited data

Results flagged for a closer look

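The effect of the CLA diet pointed in opposite directions without and with GW6471 for 18 of the genes above, by at least 1.5-fold each way. The value given is the log2 ratio of CLA+GW6471 to GW6471 minus that of CLA to Vehicle. Of the 30 genes, 14 were in this class, all of them higher in CLA than in Vehicle and lower in CLA+GW6471 than in GW6471. That direction was found for 310 of all 10355 genes (2.99%). The entry and isoprenoid enzymes were Acat2 (-3.54), Hmgcs1 (-2.10), Pmvk (-1.89), Mvd (-2.17), Idi1 (-2.12) and Fdps (-1.72). Of the later enzymes, the values were Fdft1 (-1.45), Cyp51 (-2.03), Msmo1 (-1.22), Nsdhl (-2.32), Hsd17b7 (-1.66) and Dhcr7 (-3.14). Outside the enzymes they were Insig1 (-2.06) and Stard4 (-2.17). Of the wider pathway, the genes were Rnf145 (-1.40), Lipa (-1.74), Lcat (1.57) and Acss2 (-2.70), of which Lcat was lower in CLA than in Vehicle and the others higher. The difference was not tested, since each group has 1 library. Of all 10355 genes with a mean of at least 1 FPKM, 457 had opposite calls in either direction, the class from which the 18 were taken.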

How the results depend on the processing

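Of 147 alternative values of medians and counts, 124 stayed within 0.1 of the main median or within 1.5 times the main count. The medians of the 29 genes ran from 0.69 to 0.77 for CLA against Vehicle. No gene changed the sign of a ratio when the libraries were scaled to a common FPKM sum or by median of ratios. Such scaling shifts all genes of a comparison by nearly the same amount, so it cannot test the pattern among them. With a limit of 2-fold, 11 genes were higher in CLA than in Vehicle, 2 higher in GW6471 than in Vehicle, 12 lower and 0 higher in CLA+GW6471 than in CLA, 5 lower in CLA+GW6471 than in GW6471, and 4 had opposite CLA effects. The shares of all genes at this and the other alternative settings were not computed. These counts are therefore not set against a background. With no filter, Abcg1 entered, so that 1 gene was lower in CLA and 1 in GW6471 than in Vehicle, and 2 and 1 were higher in CLA+GW6471 than in CLA and GW6471. The counts for the wider pathway are likewise without a share of all genes at the same setting. At 2-fold, 1 was higher in CLA and 1 higher and 0 lower in GW6471 than in Vehicle. In CLA+GW6471, 4 were lower than in CLA, and 0 higher and 1 lower than in GW6471. From a mean of 5 FPKM, 1 was lower in CLA and 0 in GW6471 than in Vehicle, and 1 and 0 were higher in CLA+GW6471 than in CLA and GW6471. With 1 FPKM added, 0 were lower in GW6471 than in Vehicle and 1 higher in CLA+GW6471 than in GW6471. With a common FPKM sum, 7 were lower in CLA+GW6471 than in GW6471. No paired analysis was possible because each group has 1 library, and no replicate could be left out.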
